A study of Mus musculus with 12 samples.

Results

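Genes of NAD synthesis and of the NAD-dependent sirtuins were examined in single muscle fibers from young and aged mice. The members were named by symbol, with earlier results of these data known: *Nampt*, *Nmnat1*, *Nmnat3*, *Nmrk1*, *Nadk*, *Nadk2*, *Sirt1*, *Sirt3*, *Sirt5* and *Nnt*. All 10 were present among the 55367 gene symbols of the files, were annotated as protein-coding and passed the filter on low values.

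NAD carries electrons between catabolism and the respiratory chain, and it is also consumed as a substrate by sirtuins, poly(ADP-ribose) polymerases and ADP-ribosyl cyclases. Because these enzymes release nicotinamide, cells rebuild NAD mainly by salvage: *Nampt* encodes the rate-limiting enzyme that turns nicotinamide into nicotinamide mononucleotide, nicotinamide riboside kinases make the same mononucleotide from the riboside, and *Nmnat* enzymes join it to ATP to give NAD. NAD kinases phosphorylate NAD to NADP, the inner-membrane transhydrogenase encoded by *Nnt* makes NADPH at the expense of NADH, and the sirtuins use NAD to remove acetyl and other acyl groups from proteins. In skeletal muscle, NAD supply is known for its link to mitochondrial function and for its decline with age.

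RNA was measured in myofibers isolated from the extensor digitorum longus (EDL), a fast muscle of the lower leg, in 3 groups of 4 samples. Young fibers came from mice of 3–4 months, and both aged groups came from mice of 26–28 months, all C57BL/6J, a strain known to carry a deletion in *Nnt* that removes its functional protein. The study names the Jackson Laboratory as source of C57BL/6J mice and the National Center for Geriatrics and Gerontology as source of aged mice. In comparisons with young fibers, age and mouse source therefore cannot be told apart. Fluo-4, a fluorescent calcium indicator, was used to divide the aged fibers under a stereomicroscope: those with aberrant staining are the Fluo-4 abnormal fibers, the remainder the Fluo-4 normal ones. The sources used here do not state how many fibers or mice made up a sample, so p-values measure the spread between these samples, which may be technical.

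Expression was given as TPM, a transcript's share of its library after correction for length, scaled to a sum of 1000000. Depth is unknown from such values, and intervals for counting error were not made. Between 16841 and 17936 genes were above 0 TPM in a sample. The 10 myofiber markers summed to 130400 to 132800 TPM in young, 115900 to 134900 in Fluo-4 normal and 136000 to 155800 in Fluo-4 abnormal samples, far above any other marker list. The 5 erythroid markers summed to 33.1 to 121 TPM in young, 118 to 482 in Fluo-4 normal and 44.4 to 236 in Fluo-4 abnormal samples, and the 6 fibroblast markers to 19.4 to 38.0, 25.3 to 82.4 and 13.6 to 63.8 TPM. The 5 smooth muscle markers summed to 4.13 to 66.7, 4.96 to 21.5 and 3.13 to 11.3 TPM in the same order. The 6 immune markers summed to 1.80 to 3.02 TPM in young, 5.68 to 15.5 in Fluo-4 normal and 9.32 to 16.2 in Fluo-4 abnormal samples, so every aged sum was above every young one. Of these markers *Ptprc*, *Adgre1* and *Csf1r* were under 1 TPM everywhere, whereas *Cd68*, *Cd3e* and *Lyz2* were not. The 6 satellite cell markers summed to 18.4 to 22.3 TPM in young, 11.9 to 22.4 in Fluo-4 normal and 18.5 to 32.3 in Fluo-4 abnormal samples. Of the 5 adipocyte markers 4 were at 0 in all samples. The type IIb myosin gene *Myh4* made up 96.9% to 98.6% of the adult heavy-chain TPM in young, 93.7% to 99.2% in Fluo-4 normal and 98.9% to 99.7% in Fluo-4 abnormal samples. The Fluo-4 abnormal range lay above the young one and met the Fluo-4 normal one only at its edge. Fits with this share as a covariate therefore separate it poorly from the groups. Mitochondrially-encoded genes held 7.35% to 8.01% of the TPM in young, 8.75% to 10.9% in Fluo-4 normal and 4.75% to 6.92% in Fluo-4 abnormal samples. The part of each of these in the results below was not tested.

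*Sirt3* was the member that differed most clearly. It fell in Fluo-4 abnormal fibers against both other groups, to 0.652 times the Fluo-4 normal level and 0.649 times the young level on the scale of TPM + 1. *Nmnat1* fell in Fluo-4 abnormal against young fibers, but this call stood close to the threshold and was lost in 12 of 25 alternatives. No member passed the threshold between Fluo-4 normal and young fibers, so the calls among these genes lay in comparisons that included the Fluo-4 abnormal fibers, although whether the calls differ between comparisons was not tested. The entry enzyme *Nampt* had nearly equal means in both aged groups.

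**Figure D1:**
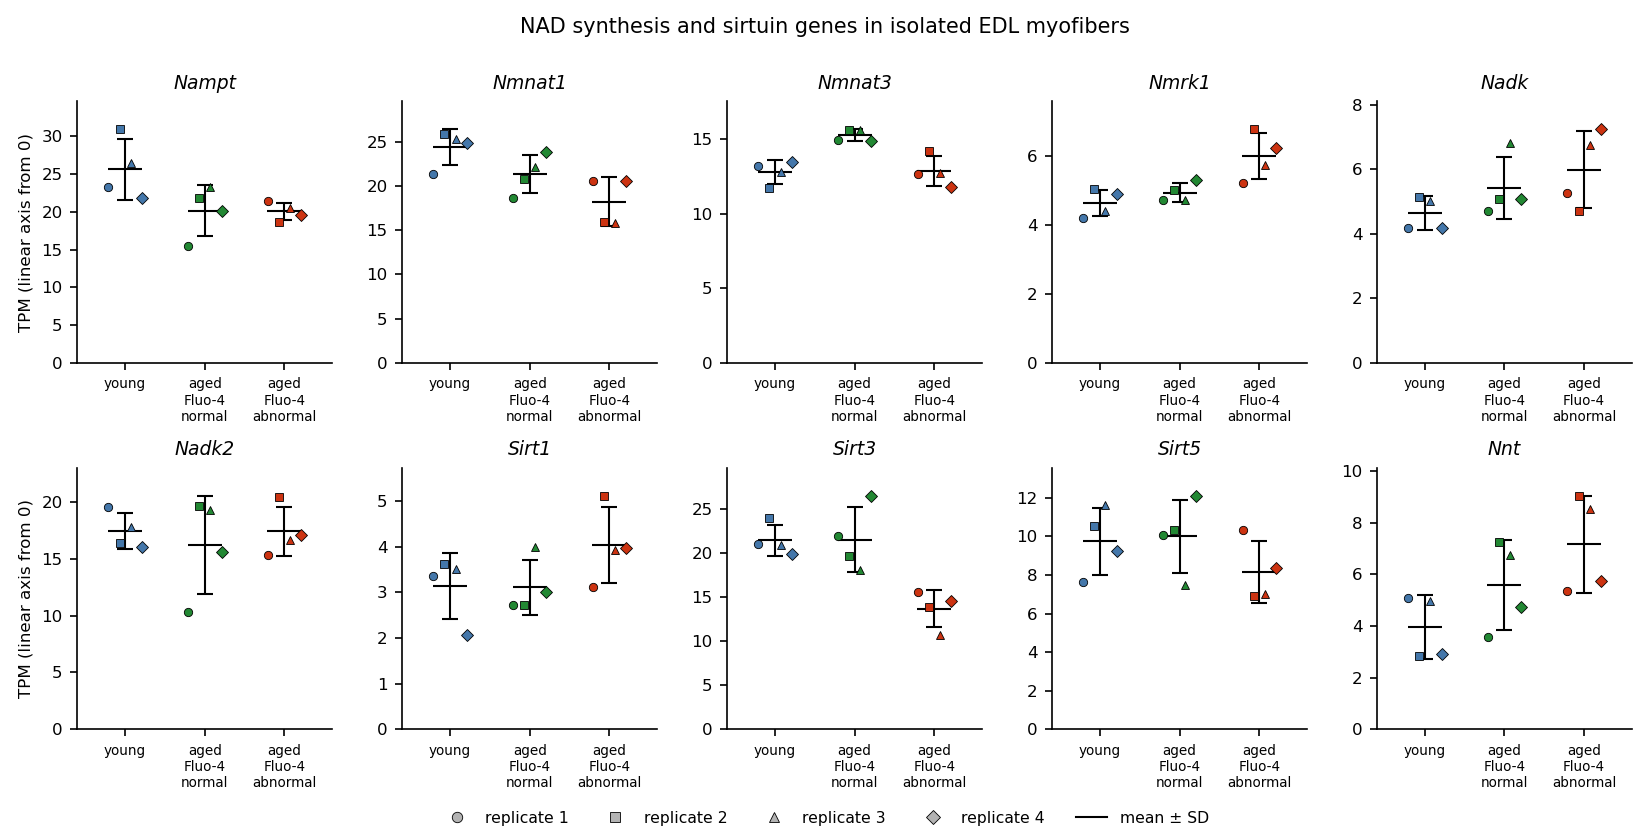
TPM of the 10 genes in each of the 12 samples, on linear axes from 0, with the marker shape giving the replicate number and black bars the mean ± SD of each group. The 4 Fluo-4 abnormal samples of *Sirt3*, from 10.7 to 15.6 TPM, lie below all 8 other samples, whereas the groups overlap for *Sirt1*, *Sirt5*, *Nadk* and *Nadk2*.

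Of the 10 members, 1 passed an adjusted p of 0.05 between Fluo-4 abnormal and Fluo-4 normal fibers, *Sirt3*, which was lower. Of the 14427 genes tested 9.35% passed, 7.36% higher and 1.99% lower. Between Fluo-4 abnormal and young fibers 2 members passed, *Sirt3* and *Nmnat1*, both lower, against a background of 8.5% of genes, 6.09% higher and 2.41% lower. Between Fluo-4 normal and young fibers the count was 0 by limma with Benjamini-Hochberg adjustment, with 2 members at an unadjusted p under 0.05, *Nampt* and *Nmnat3*, where 1.15% of all genes passed, 0.561% higher and 0.589% lower, and 12.9% had such an unadjusted p. In the comparisons with Fluo-4 abnormal fibers 2 members against Fluo-4 normal and 5 against young fibers had an unadjusted p under 0.05, beside 25.6% and 23% of all genes. With 10 genes listed, 1 call more or less moves a share by 10 percentage points, and the counts are given as a description. The median log2 change of the members was 0.06, -0.00 and 0.02 in the 3 comparisons, beside 0.10, 0.07 and -0.02 over all genes tested. Samples of the groups did not overlap for 2 members between the aged groups, *Sirt3* and *Nmnat3*, for 5 between Fluo-4 abnormal and young fibers, *Nampt*, *Nmnat1*, *Nmrk1*, *Sirt3* and *Nnt*, and for 1 between Fluo-4 normal and young fibers, *Nmnat3*, beside 14%, 16.2% and 7.99% of all genes. Under another scaling (factors by the trimmed mean of M-values, TMM) the genes called between the aged groups turned from 1062 higher and 287 lower to 306 higher and 542 lower, and the median change of all genes moved from 0.10 to 0, so all changes of members are given with that scaling where it alters their call. Its factors were 1.06 to 1.17 in Fluo-4 abnormal and 0.809 to 0.998 in Fluo-4 normal samples. It therefore lowers the change between the aged groups of every gene above 0 TPM in them. Sizes of change for genes outside the members are given without it, so the rises reported for them between the aged groups may not hold under it.

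**Figure D2:**
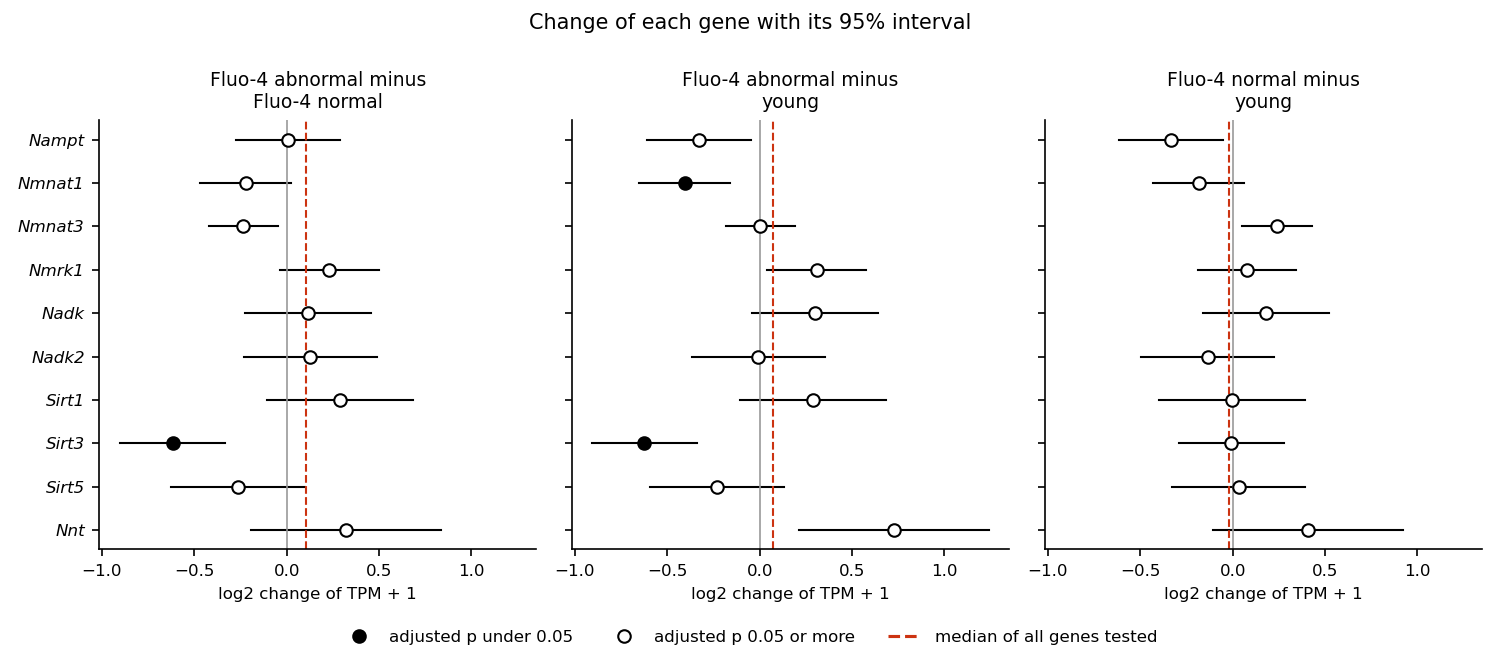
Difference in log2(TPM + 1) for each gene (points) with its 95% interval (lines) in the 3 comparisons, from the limma fit. Filled points passed an adjusted p of 0.05, and the dashed line is the median of all 14427 genes. Only the *Sirt3* points of both comparisons with Fluo-4 abnormal fibers and the *Nmnat1* point against young fibers are filled.

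*Nampt*, at the entry of the salvage route (GRCm39 chr12:32869544-32903368, plus strand), was at 23.4, 30.9, 26.4 and 21.8 TPM in the young samples, at 15.4, 21.9, 23.3 and 20.1 TPM in Fluo-4 normal fibers and at 21.4, 18.7, 20.6 and 19.6 TPM in Fluo-4 abnormal fibers. All samples of this last group fell inside the range of the Fluo-4 normal ones and below all young ones. The means were 25.6 ± 4.0, 20.2 ± 3.4 and 20.1 ± 1.2 TPM (SD, n = 4 each). The log2 difference between Fluo-4 abnormal and Fluo-4 normal fibers was 0.01, with a 95% interval of -0.27 to 0.29 and an adjusted p of 0.991 (limma, Benjamini-Hochberg over all genes, as for all adjusted p-values here). Against young fibers both aged groups were lower by a similar amount, -0.33 (interval -0.62 to -0.05) for Fluo-4 normal and -0.33 (interval -0.61 to -0.05) for Fluo-4 abnormal fibers, but neither passed (adjusted p 0.278 and 0.145). These 2 comparisons share the young samples. With the TMM scaling the difference between Fluo-4 abnormal and young fibers was -0.50 and passed (adjusted p 0.00748), and that between the aged groups was -0.21 and did not (adjusted p 0.277). Here and for all members, fewer transcripts per fiber, fewer fibers of a kind in a sample, and a larger share of other RNA in the same library cannot be told apart.

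*Nmrk1* encodes nicotinamide riboside kinase 1, which feeds the same mononucleotide pool, and was one of the less abundant members. Its TPM was 4.20, 5.02, 4.39 and 4.88 in young, 4.71, 5.00, 4.72 and 5.29 in Fluo-4 normal, and 5.20, 6.76, 5.74 and 6.21 in Fluo-4 abnormal fibers. All Fluo-4 abnormal samples were above all young samples, and the lowest overlapped with the highest Fluo-4 normal sample. The log2 difference was 0.31 against young fibers (interval 0.04 to 0.57, adjusted p 0.149) and 0.23 against Fluo-4 normal fibers (interval -0.04 to 0.50, adjusted p 0.263), and neither passed. The libraries were not stranded, and 262 bases of *Nmrk1* exons are also exons of *Ostf1* on the opposite strand. *Ostf1* rose by 0.57 in the same comparison (adjusted p 0.00593), and how reads in the shared bases were assigned was not tested.

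The paralog *Nmrk2*, the riboside kinase known for its high expression in muscle, is not a member but was far more abundant. Its TPM was 101, 148, 129 and 84.2 in young, 62.3, 73.3, 33.0 and 51.8 in Fluo-4 normal, and 54.7, 29.1, 38.1 and 41.5 in Fluo-4 abnormal fibers. All 8 aged samples lay below all 4 young samples. *Nmrk2* fell by 1.48 on the log2 scale in Fluo-4 abnormal fibers against young ones (SE 0.24, adjusted p 0.00282), and the difference of -1.08 between Fluo-4 normal and young fibers did not pass (interval -1.60 to -0.55, adjusted p 0.0528). The aged groups differed by -0.40 (interval -0.92 to 0.12, adjusted p 0.326). The ratio of *Nmrk2* to *Nmrk1* TPM was thus 25.0 ± 5.8 in young, 11.2 ± 3.4 in Fluo-4 normal and 7.03 ± 2.57 in Fluo-4 abnormal fibers (SD, n = 4 each), given as a description.

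The next step, from the mononucleotide to NAD, is shared by *Nmnat1*, whose enzyme is nuclear, and *Nmnat3*, whose enzyme is mostly placed in mitochondria. *Nmnat1* (GRCm39 chr4:149552026-149569680, minus strand) was at 21.4, 25.9, 25.3 and 24.8 TPM in young, 18.6, 20.8, 22.1 and 23.8 in Fluo-4 normal, and 20.6, 15.9, 15.8 and 20.6 in Fluo-4 abnormal fibers. These last samples formed 2 pairs, one near 16 and one near 21 TPM, and all 4 were below the lowest young sample. *Nmnat1* fell by 0.41 on the log2 scale in Fluo-4 abnormal against young fibers (SE 0.11, adjusted p 0.0421). This call stood close to the threshold and was lost in 8 of the 12 fits that left out 1 library, without young replicate 2, 3 or 4, Fluo-4 abnormal replicate 2 or 3, or Fluo-4 normal replicate 2, 3 or 4 (adjusted p 0.0502 to 0.118). It was also lost with the *Myh4* share as a covariate (adjusted p 0.0836), or that share and a block by replicate number (0.109). The same held over all annotated genes (adjusted p 0.0604) and with only the groups compared (0.0645), so that 12 of 25 alternatives lost the call. From Fluo-4 normal fibers the difference was -0.22 (interval -0.47 to 0.02, adjusted p 0.241), which passed with the TMM scaling (-0.44, adjusted p 0.0368).

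*Nmnat3* (GRCm39 chr9:98169483-98302816, plus strand) had another pattern over the groups, with its highest values in Fluo-4 normal fibers. Its TPM was 13.2, 11.7, 12.8 and 13.5 in young, 15.0, 15.6, 15.6 and 14.9 in Fluo-4 normal, and 12.7, 14.2, 12.8 and 11.8 in Fluo-4 abnormal fibers. The 4 Fluo-4 normal samples spanned under 1 TPM and lay above all 8 others, which overlapped with each other. The log2 difference was -0.23 between the aged groups (interval -0.42 to -0.05, unadjusted p 0.0189 by limma, adjusted p 0.111) and 0.24 between Fluo-4 normal and young fibers (interval 0.05 to 0.43, adjusted p 0.243), and neither passed. With the TMM scaling the first was -0.45 and passed (adjusted p 0.0175). The TPM ratio of *Nmnat3* to *Nmnat1* was 0.530 ± 0.070 in young, 0.722 ± 0.074 in Fluo-4 normal and 0.722 ± 0.152 in Fluo-4 abnormal fibers (SD, n = 4 each): the young range of 0.452 to 0.619 lay below the Fluo-4 normal range of 0.627 to 0.803 and overlapped with the Fluo-4 abnormal range of 0.575 to 0.890.

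The NAD kinases differed in level rather than between groups. *Nadk*, the cytosolic kinase, was at 4.19 to 5.15 TPM in young, 4.70 to 6.82 in Fluo-4 normal and 4.69 to 7.23 in Fluo-4 abnormal fibers, and *Nadk2*, the mitochondrial kinase, at 16.1 to 19.6, 10.3 to 19.7 and 15.4 to 20.5 TPM. The TPM ratio of *Nadk2* to *Nadk* was 3.81 ± 0.63, 3.00 ± 0.70 and 3.03 ± 0.92 in the same order (SD, n = 4 each). The log2 differences between the aged groups were 0.12 for *Nadk* (interval -0.22 to 0.46, adjusted p 0.675) and 0.13 for *Nadk2* (interval -0.23 to 0.49, adjusted p 0.665), both with the opposite sign under the TMM scaling (-0.07 and -0.08). The low end of *Nadk2*, 10.3 TPM, was Fluo-4 normal replicate 1, whereas the other 3 samples of that group were at 15.7 to 19.7 TPM. Without that library the *Nadk2* difference turned to -0.06. With the *Myh4* share as a covariate, which is poorly separated from these groups, the *Nadk2* difference was 0.61 and passed (adjusted p 0.0445). Fluo-4 normal replicate 1 had the largest *Myh4* share of its group, 99.2%, and the lowest scaling factor of the 12 libraries, 0.809. The part of either in the *Nadk2* value was not tested.

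*Nnt* was at 5.07, 2.84, 4.97 and 2.92 TPM in young, 3.58, 7.27, 6.77 and 4.73 in Fluo-4 normal, and 5.35, 9.05, 8.52 and 5.74 in Fluo-4 abnormal fibers. Every Fluo-4 abnormal sample was above every young sample, and the Fluo-4 normal samples overlapped with both. The log2 difference between Fluo-4 abnormal and young fibers, 0.73, was the largest of any member in any comparison, but its spread was also wide (SE 0.24, interval 0.21 to 1.24) and it did not pass (adjusted p 0.0788). It passed in 4 of 25 alternatives: with only genes of at least 5 TPM (adjusted p 0.0376), with the *Myh4* share as a covariate (0.97, adjusted p 0.0257) or that share and a block by replicate number (0.93, adjusted p 0.0299), and without both aged samples numbered 1 (0.84, adjusted p 0.0437). From Fluo-4 normal fibers the difference was 0.32 (interval -0.20 to 0.83, adjusted p 0.435). *Nnt* was higher in the Fluo-4 abnormal sample of all 4 pairs of equal number, and with the number as a fixed term the same difference had an adjusted p of 0.123. These are transcript levels of a gene that gives no functional protein in this strain. *Nnt* exons also overlap those of *Paip1* and the non-coding *Gm9777* on the opposite strand, by 530 and 932 bases.

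Among the sirtuins, *Sirt1* encodes a deacetylase found mainly in the nucleus, *Sirt3* the main deacetylase of the mitochondrial matrix, and *Sirt5* a mitochondrial enzyme that removes succinyl, malonyl and glutaryl groups. *Sirt3* (GRCm39 chr7:140443577-140462311, minus strand) was at 21.1, 24.0, 20.9 and 19.9 TPM in young, 21.9, 19.6, 18.1 and 26.6 in Fluo-4 normal, and 15.6, 13.9, 10.7 and 14.6 in Fluo-4 abnormal fibers. The highest Fluo-4 abnormal sample was below the lowest sample of both other groups, which overlapped with each other. The means were 21.5 ± 1.8, 21.6 ± 3.7 and 13.7 ± 2.1 TPM (SD, n = 4 each). *Sirt3* fell by 0.62 against Fluo-4 normal fibers (SE 0.13, interval -0.90 to -0.33, adjusted p 0.0125) and by 0.62 against young fibers (SE 0.13, interval -0.91 to -0.34, adjusted p 0.0114), where both comparisons share the Fluo-4 abnormal samples. Between Fluo-4 normal and young fibers the difference was -0.01 (interval -0.29 to 0.28, adjusted p 1).

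The fall of *Sirt3* between the aged groups passed in 25 of 26 alternatives, with log2 changes of -0.83 to -0.51. The exception fitted only the 8 aged samples, where the same change had an adjusted p of 0.0592. Relative to *Tbp*, the gene the study's methods name as the reference for quantitative PCR, the log2 ratio of *Sirt3* was 1.60 ± 0.39 in Fluo-4 abnormal and 2.44 ± 0.36 in Fluo-4 normal fibers (SD, n = 4 each). The difference of -0.84 had a two-sided exact permutation p of 0.0286, the smallest that 70 arrangements allow. After Benjamini-Hochberg adjustment over the 10 members this p was 0.286 and did not pass, as a single gene at that smallest p cannot. No member passed relative to *Tbp*, also in all 10 alternatives. With so few samples, a call in such a test would need at least several members at the smallest possible p together. The lack of calls, in the reported test and in the alternatives, therefore cannot decide whether a single member changed relative to *Tbp*. *Tbp* itself was at 2.74 to 5.76 TPM in Fluo-4 normal and 3.21 to 6.95 TPM in Fluo-4 abnormal fibers. The TPM ratio of *Sirt3* to *Sirt1* was 7.13 ± 1.69 in young, 7.17 ± 1.88 in Fluo-4 normal and 3.53 ± 1.09 in Fluo-4 abnormal fibers (SD, n = 4 each).

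*Sirt3* shares exon bases with 2 genes of the opposite strand, 458 with *Psmd13*, which encodes a subunit of the proteasome's regulatory particle, and 473 with *Ric8a*. *Psmd13* was at 66.2 to 68.5 TPM in young, 65.9 to 72.2 in Fluo-4 normal and 72.4 to 91.2 in Fluo-4 abnormal fibers, with no overlap between Fluo-4 abnormal and either other group. It rose by 0.29 against Fluo-4 normal fibers (SE 0.07, adjusted p 0.0256), the opposite direction to *Sirt3*. The TMM scaling lowers this rise of *Psmd13*, and its size there is not given. The TPM ratio of *Psmd13* to *Sirt3* was 3.16 ± 0.24, 3.27 ± 0.58 and 6.35 ± 1.39 in young, Fluo-4 normal and Fluo-4 abnormal fibers (SD, n = 4 each). *Ric8a* was at 3.25 to 5.31 TPM in Fluo-4 normal and 4.62 to 5.94 TPM in Fluo-4 abnormal fibers (log2 difference 0.26, interval -0.14 to 0.66, adjusted p 0.417). Both neighbors were chosen for the shared bases, not for their values.

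The promoter sequences of the members that passed, and of *Nmnat3* for comparison with its paralog, are given to show the sequence around their transcript starts. RefSeq (GRCm38.p6) lists 11 promoters for 8 of the 10 members, each from 250 bases before to 50 after a transcript start. Capitals mark ACTTCCGG, a site of the ETS factor GABP, or AAGGTCA, a binding site of estrogen-related receptors, both searched on both strands; none of the matches overlapped another motif.
*Sirt3*, chr7:140882260-140882559, minus strand: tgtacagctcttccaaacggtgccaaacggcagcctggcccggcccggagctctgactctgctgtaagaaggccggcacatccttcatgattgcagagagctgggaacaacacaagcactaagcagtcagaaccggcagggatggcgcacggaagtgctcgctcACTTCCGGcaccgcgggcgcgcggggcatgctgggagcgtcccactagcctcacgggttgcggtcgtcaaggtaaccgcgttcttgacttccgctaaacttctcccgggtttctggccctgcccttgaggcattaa
*Sirt3*, chr7:140881820-140882119, minus strand: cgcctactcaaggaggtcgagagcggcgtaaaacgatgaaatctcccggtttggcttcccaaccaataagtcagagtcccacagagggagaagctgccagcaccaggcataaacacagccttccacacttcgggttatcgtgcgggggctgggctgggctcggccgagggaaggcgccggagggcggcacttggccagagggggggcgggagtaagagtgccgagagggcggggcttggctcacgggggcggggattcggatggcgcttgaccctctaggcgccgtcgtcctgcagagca
*Nmnat1*, chr4:149485123-149485422, minus strand: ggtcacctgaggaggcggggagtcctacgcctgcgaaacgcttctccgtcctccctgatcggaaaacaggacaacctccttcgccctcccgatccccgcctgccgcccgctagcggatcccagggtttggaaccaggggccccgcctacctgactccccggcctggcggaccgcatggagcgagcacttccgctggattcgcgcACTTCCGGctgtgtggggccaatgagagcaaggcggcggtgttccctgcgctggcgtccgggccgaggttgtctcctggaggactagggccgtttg
*Nmnat3*, chr9:98296320-98296619, plus strand: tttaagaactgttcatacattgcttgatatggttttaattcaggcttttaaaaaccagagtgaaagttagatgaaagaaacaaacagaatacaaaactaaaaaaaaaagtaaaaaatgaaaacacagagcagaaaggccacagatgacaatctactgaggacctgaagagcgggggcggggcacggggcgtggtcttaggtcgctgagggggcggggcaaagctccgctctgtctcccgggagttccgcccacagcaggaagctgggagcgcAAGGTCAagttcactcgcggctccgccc
The ACTTCCGG letters were in one of the 2 *Sirt3* windows and in both overlapping *Nmnat1* windows, and in 3.89% of the 32851 promoters of the table. AAGGTCA was in the windows of *Nmnat3* and *Sirt5* and in 4.72% of all promoters. The E-box CACGTG was in the *Sirt1* window at 2 places, in one of the *Nadk* windows, and in 7.15% of all promoters. *Nampt* and *Nmrk1* held none of the 3 motifs in these windows. *Sirt3* and *Nmnat1*, the members called in the reported fits, have the letters ACTTCCGG in at least 1 window, and *Nmnat3* lacks them in its window. *Nmnat3* was itself called lower between the aged groups with the TMM scaling. The letters therefore do not set the members that fell apart from *Nmnat3*. The motifs were chosen with these promoters in view, so this is only a description of the sequences. A role of the motif was not tested.

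*Sirt1*, at 3.36, 3.61, 3.50 and 2.07 TPM in young, 2.72, 2.72, 4.00 and 3.00 in Fluo-4 normal, and 3.11, 5.12, 3.94 and 3.98 in Fluo-4 abnormal fibers, was the lowest member by mean in every group. Its samples overlapped in all comparisons. The log2 difference was 0.29 between the aged groups (interval -0.11 to 0.68, adjusted p 0.350) and -0.00 between Fluo-4 normal and young fibers (interval -0.40 to 0.39, adjusted p 1). *Sirt1* shares 707 exon bases with *Herc4* on the opposite strand, which was at 9.08 ± 1.79 TPM in Fluo-4 normal and 12.1 ± 2.3 in Fluo-4 abnormal fibers (SD, n = 4 each) and did not pass (log2 difference 0.38, adjusted p 0.155).

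*Sirt5* was at 7.61, 10.5, 11.6 and 9.22 TPM in young, 10.1, 10.3, 7.5 and 12.1 in Fluo-4 normal, and 10.3, 6.91, 7.01 and 8.38 in Fluo-4 abnormal fibers. The groups overlapped in all 3 comparisons. Between the aged groups the log2 difference was -0.26 (interval -0.62 to 0.10, adjusted p 0.353). The ratio of *Sirt3* to *Sirt5* TPM was 2.26 ± 0.40 in young, 2.17 ± 0.21 in Fluo-4 normal and 1.70 ± 0.23 in Fluo-4 abnormal fibers (SD, n = 4 each).

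By level, the members fell into an upper set of 5 and a lower set of 5 in every group. *Nampt*, *Nmnat1*, *Sirt3*, *Nadk2* and *Nmnat3* had means of 12.8 to 25.6 TPM, followed by *Sirt5* at 8.16 to 10.0 TPM, and *Nadk*, *Nmrk1*, *Nnt* and *Sirt1* at 3.11 to 7.17 TPM. In young fibers the order was *Nampt*, *Nmnat1*, *Sirt3*, *Nadk2*, *Nmnat3*, with sample ranges overlapping between the first 3 and separate between neighbors from *Sirt3* down to *Nadk*. In Fluo-4 normal fibers *Sirt3* had the highest mean, 21.6 TPM, and its range overlapped with those of *Nmnat1* and, further down, *Nampt*. In Fluo-4 abnormal fibers *Sirt3* was the fourth of the 10, at 13.7 TPM between *Nadk2* and *Nmnat3*, with ranges that overlapped with *Nadk2* and *Nmnat3*.

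For 2 members the genes of most similar profile were listed, by the smallest mean absolute difference of z-scored log2 values over the 12 samples, among 5994 genes of at least 5 TPM. The nearest to *Sirt3* were *Coq9*, *Phyh*, *Ndufaf3*, *Atp5g3* and *Ckmt2*, with differences of 0.293 to 0.332 beside a median of 1.28 over all genes compared. *Ckmt2*, which encodes the mitochondrial creatine kinase of muscle, was at 1040 to 1142 TPM in young, 1074 to 1421 in Fluo-4 normal and 183 to 496 in Fluo-4 abnormal fibers, and fell by 1.94 between the aged groups (SE 0.21, adjusted p 0.000494), a far larger change than that of *Sirt3*. *Perm1*, a regulator of muscle mitochondrial genes, fell by 1.15 (SE 0.15, adjusted p 0.000992). The nearest to *Nampt* were *Sbk2*, *Cfap298*, *Ric8b*, *Pgap2* and *D1Ertd622e*, at 0.275 to 0.364 beside a median of 1.01.

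The other genes around NAD were read from 4 lists. Of 19 further genes of NAD synthesis and transport, 13 were tested, and between the aged groups 0 passed by limma, with 1 at an unadjusted p under 0.05. Of all genes tested 9.35% passed and 25.6% had such an unadjusted p. With an estimated correlation between samples of the same number 1 passed, the nucleoside transporter gene *Slc29a1*, which was higher in Fluo-4 abnormal fibers, and with the TMM scaling 1 passed, *Slc25a51*, which was lower. Against young fibers 2 fell in Fluo-4 abnormal fibers, *Nmrk2* and *Slc25a51*, the carrier of NAD into mitochondria, where 2.41% of all genes passed lower. *Slc25a51* was at 55.0 to 65.0 TPM in young, 43.8 to 48.8 in Fluo-4 normal and 40.0 to 49.9 in Fluo-4 abnormal fibers, with all aged samples below all young ones (fall of 0.43, SE 0.08, adjusted p 0.00780). The Fluo-4 normal difference from young fibers was -0.36 (interval -0.54 to -0.18, adjusted p 0.0611), and that between the aged groups -0.07 (interval -0.25 to 0.11, adjusted p 0.638). *Naprt*, the entry enzyme for nicotinic acid, was at 2.56 to 2.84 TPM by group mean, *Nnmt*, which methylates nicotinamide, under 1 TPM by mean in each group, and *Nmnat2* was listed at 0 in all 12 samples.

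Of 18 other NAD-consuming genes 17 were tested, and 0 passed between the aged groups by limma, where 9.35% of all genes passed. By sign 14 were higher and 2 lower, with a median log2 change of 0.16 beside 0.10 over all genes, and 4 of the 17 had an unadjusted p under 0.05, where 25.6% of all genes had one. The TMM scaling lowers these changes, and the signs under it are not given. *Parp1*, which encodes the main poly(ADP-ribose) polymerase, was at 16.4, 18.8, 22.1 and 25.6 TPM in Fluo-4 normal and 24.2, 35.2, 29.9 and 26.2 in Fluo-4 abnormal fibers, and its samples overlapped (log2 difference 0.46, interval 0.16 to 0.77, adjusted p 0.0571). With an estimated correlation between samples of the same number 3 passed, all higher: *Parp1*, *Parp3* and *Tnks*. With the number as a fixed term 1 passed, *Tnks2*. Against young fibers *Tnks* rose by 0.83 in Fluo-4 abnormal fibers (SE 0.20, adjusted p 0.0226). *Sirt2*, the cytosolic sirtuin and the most abundant one, was at 65.6 to 69.5 TPM by group mean, with a difference of 0.08 between the aged groups (interval -0.11 to 0.27, adjusted p 0.584). *Cd38*, an ectoenzyme that degrades NAD, was under 1 TPM by mean in each group.

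The genes of the shuttles that carry the electrons of cytosolic NADH into mitochondria, together with the lactate dehydrogenases, were the list with the most calls. Of the 13, 7 passed between the aged groups, 6 lower and 1 higher, where 9.35% of all genes passed, 1.99% lower and 7.36% higher. The median log2 change of the list was -0.34, beside 0.10 over all genes. The 6 lower ones were enzymes and carriers of the malate-aspartate shuttle: *Got1* fell by 1.02 (SE 0.11, adjusted p 0.000494), *Slc25a11* by 0.59 (SE 0.07, adjusted p 0.000517) and *Mdh1* by 0.64 (SE 0.08, adjusted p 0.000730), followed by *Got2*, *Slc25a12* and *Mdh2*, which fell by 0.42, 0.34 and 0.30. *Got1* was at 230 to 262 TPM in young, 265 to 369 in Fluo-4 normal and 138 to 187 in Fluo-4 abnormal fibers, so that the Fluo-4 normal samples were the highest and no groups overlapped. *Gpd2*, the mitochondrial glycerol-3-phosphate dehydrogenase of the other shuttle, rose by 0.53 (SE 0.12, adjusted p 0.0185), from 61.2 ± 11.7 TPM in Fluo-4 normal to 87.7 ± 8.8 TPM in Fluo-4 abnormal fibers (SD, n = 4 each), whose samples overlapped with the 75.8 to 84.0 TPM of young fibers. With the replicate number as a fixed term 3 of the 13 passed, *Got1*, *Mdh1* and *Slc25a11*. Against young fibers 5 fell in Fluo-4 abnormal fibers, *Got1*, *Ldhd*, *Mdh1*, *Mdh2* and *Slc25a11*, where 2.41% of all genes passed lower. Between Fluo-4 normal and young fibers 0 passed by limma, where 1.15% of all genes passed. An unadjusted p under 0.05 was seen there for 5 of the list and for 12.9% of all genes.

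**Figure D3:**
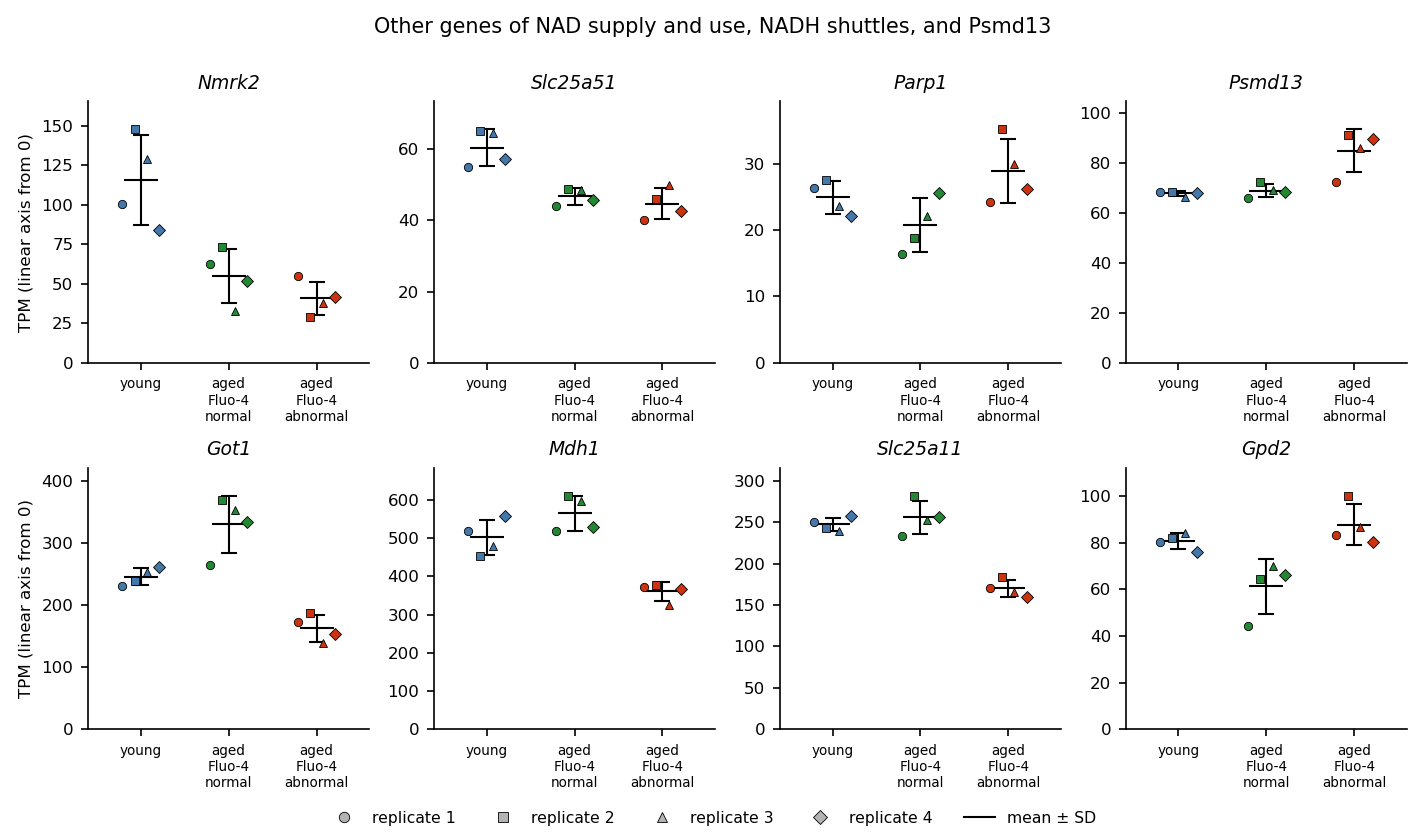
TPM of 8 genes outside the 10 members in each of the 12 samples, on linear axes from 0, with marker shapes for the replicate number and bars for the mean ± SD. *Nmrk2* and *Slc25a51* are lower in all 8 aged samples than in young ones, whereas *Got1*, *Mdh1* and *Slc25a11* are lowest in the 4 Fluo-4 abnormal samples and *Psmd13* is highest there.

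Beside *Nadk2* and *Nnt*, a list of 14 genes headed NADPH production was read. It took in malic and folate enzymes whichever of NAD and NADP they use, so not every gene on it need make NADPH. Between the aged groups 3 passed, 2 higher and 1 lower, where 9.35% of all genes passed, 7.36% higher and 1.99% lower. The cytosolic malic enzyme *Me1* rose by 0.79 (SE 0.15, adjusted p 0.00787), *Mthfd2* of mitochondrial folate metabolism rose by 0.93 (SE 0.24, adjusted p 0.0294), and the mitochondrial malic enzyme *Me3* fell by 0.40 (SE 0.06, adjusted p 0.00294). *Me1* was at 123 to 154 TPM in young, 64.6 to 106 in Fluo-4 normal and 119 to 185 in Fluo-4 abnormal fibers, and it fell by 0.70 between young and Fluo-4 normal fibers (SE 0.15, adjusted p 0.0482). Its Fluo-4 abnormal samples therefore overlapped with the young ones, with a difference of 0.09 (interval -0.24 to 0.43, adjusted p 0.766). *Me3* was at 73.7 to 82.1 TPM in young, 77.2 to 84.1 in Fluo-4 normal and 57.1 to 63.6 TPM in Fluo-4 abnormal fibers, a pattern over the groups with the same order as *Sirt3*.

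**Figure D4:**
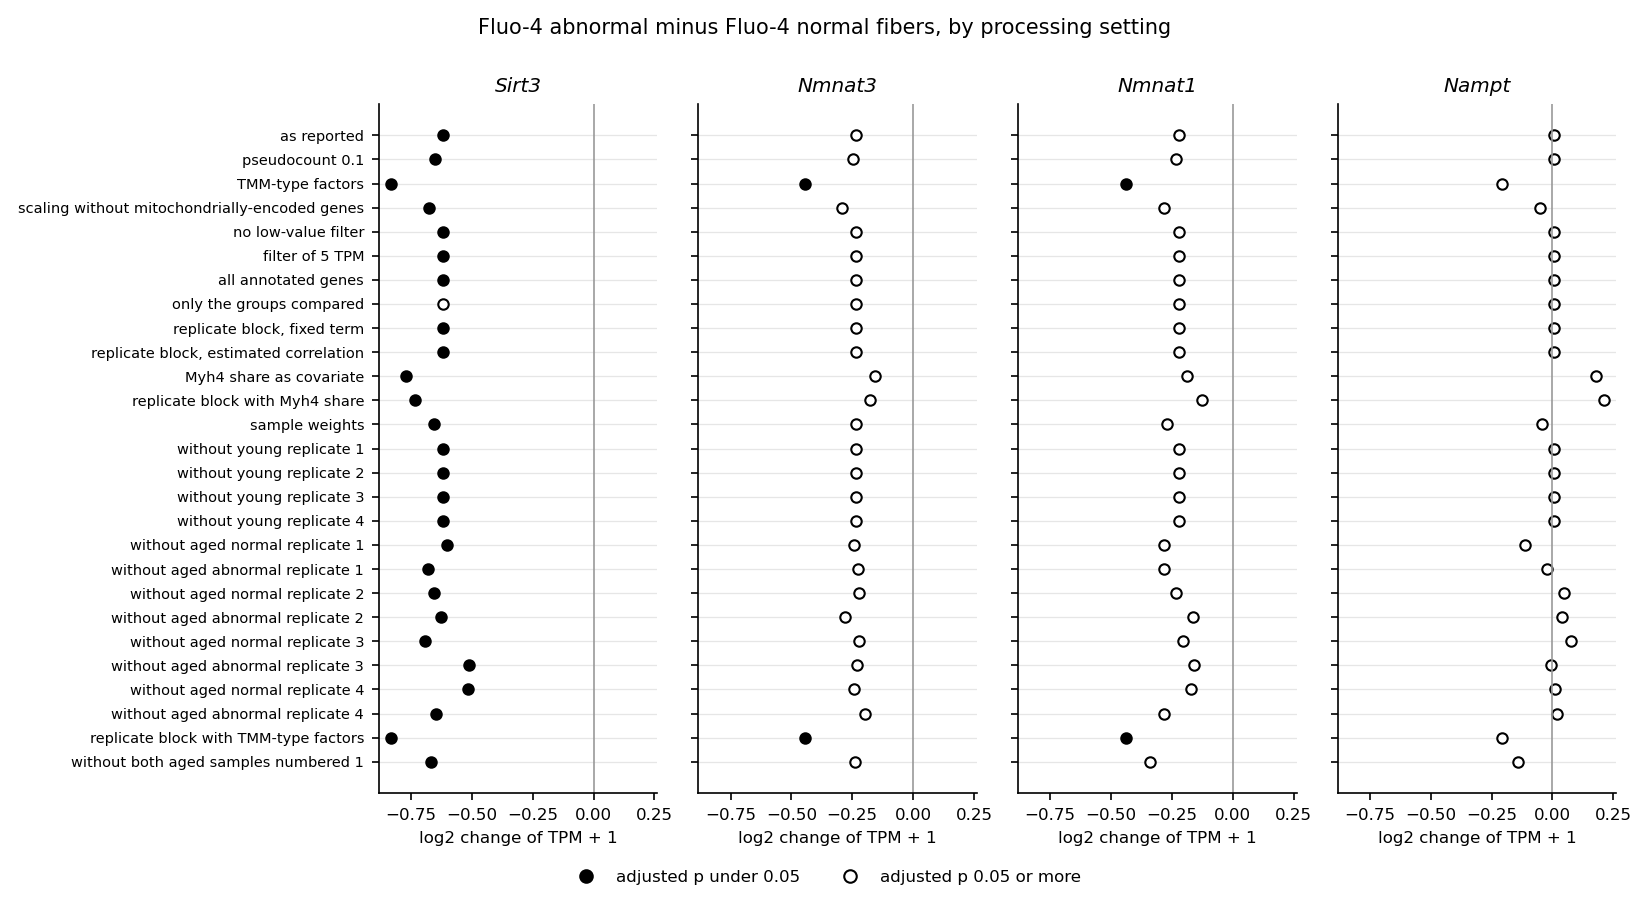
Log2 change of TPM + 1 between Fluo-4 abnormal and Fluo-4 normal fibers for 4 members under the reported and the alternative settings (one line each), with filled points for an adjusted p under 0.05. *Sirt3* stays between -0.83 and -0.51 and is filled in all settings except the fit of the aged groups alone, *Nmnat3* and *Nmnat1* are filled only with the TMM-type factors, and *Nampt* lies on either side of 0.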

How the data were processed

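The authors made libraries from 10 ng of total RNA with SMART-Seq v4, which does not mark the strand, used DRAGEN 4.3 for alignment to GRCm39, and deposited TPM as 1 table for each of the 12 samples. The annotation release is not given in the sources used here. Each file held 55487 lines and 55367 symbols. Of these, 114 symbols were on several lines, whose values were summed. Read counts were not used here, so depth is unknown. Symbols were classed by GENCODE vM39 and RefSeq, and 2885, with 0.243% to 0.298% of the TPM, were not matched.

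Values were transformed to log2(TPM + 1), so fold changes understate those of low genes. Protein-coding and mitochondrially-encoded genes with a mean of at least 0.02 TPM in at least 1 group, 14427 in all, were fitted in 1 linear model of the 3 groups (limma 3.58.1, R 4.3.3, variance trend), with Benjamini-Hochberg adjustment over all genes and a threshold of 0.05. Ratios to *Tbp* were compared by exact permutation, with Benjamini-Hochberg adjustment over the members. Exon overlaps (at least 100 bases) came from GENCODE, and no member had a near-identical copy (BLAST 2.17.0, 95% identity over 50% of the longest transcript). Such overlaps were found for 7 members. Beside those given above, *Sirt5* shared 629 bases with *Gm59983*, *Nmnat3* 179 with *Gm46126*, *Nadk2* 112 with *Gm53883* and *Sirt1* 250 with *Gm66643*. These are non-coding genes of the opposite strand, and how reads there were assigned was not tested.

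The members and lists were chosen with earlier results of these data known, and motifs with the promoters in view. The text names all 10 members, from each list the 2 genes per direction with the smallest adjusted p past the threshold, a fixed set of NAD genes and controls (*Nmrk2*, *Nmnat2*, *Naprt*, *Nnmt*, *Slc25a51*, *Cd38*, *Parp1*, *Sirt2*, *Tbp*, *Myh4*, *Ckmt2*, *Perm1*) and the 5 most similar genes for *Nampt* and *Sirt3*. Neighbors were added for their shared exon bases, and other genes named in counts after their values were seen. Samples of the same number deviated together from their group means (r 0.31 to 0.45 over 5614 genes, different numbers -0.38 to 0.25). On this evidence from the data the numbers were treated as pairs in alternatives only, and the reported fits took no account of them. Alternatives covered the pseudocount (0.1), TMM-type factors, scaling without mitochondrially-encoded genes, low-value filters (none, 5 TPM), all annotated genes, only the groups compared, the replicate block, the *Myh4* share, sample weights and each sample left out. A block with TMM-type factors, and leaving out both aged samples numbered 1, were added after seeing the data.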

Additional observations from a re-analysis of the deposited data

Results flagged for a closer look

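Of 30 groups of 4 samples (10 members in 3 groups), 1 held a sample far from the others: *Sirt1* in young replicate 4 was at 2.07 TPM, below the 3.36 to 3.61 TPM of the other 3 young samples, with a gap of 0.861 of the group's range on the log2 scale (above Dixon's 95% critical value for 4 samples). Chance sets apart about 1 in 20 such groups.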

How the results depend on the processing

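The count of members changed between the aged groups was 1, and 3 with TMM-type factors with or without the replicate block, 0 with only the groups compared, and 2 with the *Myh4* share with or without the block. Every fit that left out 1 sample gave 1. Against young fibers the count was 2, and 1 over all annotated genes or with only the groups compared, and 3 with TMM-type factors (with or without the block), the 5 TPM filter, or without both aged samples numbered 1. Fits without 1 sample gave 1 to 2. Between Fluo-4 normal and young fibers it was 0 in all 25 alternatives. Between the aged groups, the count for other NAD synthesis and transport genes was 0, and 1 with TMM-type factors (with or without the block), the 5 TPM filter, the estimated correlation, and the *Myh4* share with or without the block. The count for other NAD consumers was 0, and 1 with the pseudocount of 0.1, 2 with the 5 TPM filter, 1 with the fixed block, 3 with the estimated correlation, 1 without both aged samples numbered 1, and 0 to 2 without 1 sample, with 2 without Fluo-4 abnormal replicate 1 and 1 without Fluo-4 normal replicate 4. The count for the NADH shuttles was 7, and 3 with only the groups compared or the fixed block, 4 with the *Myh4* share with or without the block, 9 with TMM-type factors (with or without the block), sample weights or without both aged samples numbered 1, 10 with the 5 TPM filter or the estimated correlation, and 5 to 9 without 1 sample. For NADPH production it was 3, and 1 with only the groups compared, 2 to 4 in the other alternatives, and 2 to 4 without 1 sample.

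Signs turned only for differences that did not pass. Between the aged groups, *Nampt* (0.01) was -0.21 with TMM-type factors with or without the block, -0.052 with scaling without mitochondrially-encoded genes, -0.044 with sample weights, -0.14 without both aged samples numbered 1, and -0.11 to 0.077 without 1 sample. *Nadk* was -0.073 with TMM-type factors with or without the block. *Nadk2* was -0.084 in these, -0.0070 without both aged samples numbered 1, and -0.061 to 0.23 without 1 sample. Between Fluo-4 abnormal and young fibers, *Nmnat3* was -0.16 with TMM-type factors with or without the block, -0.024 without mitochondrially-encoded genes, -0.0041 with sample weights, and -0.041 to 0.041 without 1 sample. *Nadk2* was 0.24 with the *Myh4* share, 0.22 with the block and that share, 0.047 without both aged samples numbered 1, and -0.084 to 0.047 without 1 sample. Between Fluo-4 normal and young fibers, *Nadk2* was 0.054 without both aged samples numbered 1, and -0.24 to 0.054 without 1 sample. *Sirt1* there was 0.0024 with the pseudocount of 0.1, 0.040 with TMM-type factors with or without the block, 0.022 without mitochondrially-encoded genes, 0.00044 with the *Myh4* share, 0.028 with that share and the block, 0.015 with sample weights, 0.043 without both aged samples numbered 1, and -0.14 to 0.057 without 1 sample. *Sirt3* there was 0.043 with TMM-type factors with or without the block, 0.022 without mitochondrially-encoded genes, 0.068 with the *Myh4* share, 0.050 with that share and the block, 0.038 with sample weights, and -0.11 to 0.069 without 1 sample. *Sirt5* there was -0.069 to 0.15 without 1 sample. Relative to *Tbp*, *Nampt*, *Nadk* and *Nadk2* turned to 0.0073, 0.14 and 0.14 with no reference gene. Without 1 sample they ranged over -0.36 to 0.041, -0.28 to 0.097 and -0.24 to 0.23, *Nmrk1* over -0.065 to 0.28, *Sirt1* over -0.012 to 0.39 and *Nnt* over -0.070 to 0.51. The causes were not tested.

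The replicate block on its own changed no call of a member: *Sirt3* between the aged groups had an adjusted p of 0.0271 with the number as a fixed term and 0.00310 with an estimated correlation, and *Nmnat1* against young fibers 0.0442 with the latter. With 4 samples a group, differences within the intervals given cannot be resolved. TPM values are relative within a library, so a change of abundant transcripts moves all others. Sample numbers, fibers per sample and mice could not be told apart here, and the deleted *Nnt* exons were not examined separately.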
